A study of Mus musculus with 4 samples.

Results

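Insulin-poor β cells are the β cells in which the insulin genes took the smallest part of the transcripts of the cell. They were picked within each library of dissociated mouse pancreatic islets from unique molecular identifiers (UMIs, each standing for 1 captured RNA molecule). A barcode was taken as a β cell with at least 2000 UMIs, at most 10% mitochondrial UMIs, Ins1 and Ins2 together at 20% of UMIs or more, at least 1 Iapp UMI, and Gcg, Sst and Ppy each under 2% of UMIs. The 10% of these cells with the lowest insulin share formed the insulin-poor set, and the cells from the 25th to the 75th percentile of that share formed the mid-range set. The insulin-poor set held 470 of 4720 β cells among 7376 barcodes, and the mid-range set held 2360.

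The study asked what a mutation of Myt3 (gene symbol St18), a zinc-finger transcription factor, does to islet β cells in mice. Mutant islets came from adult mice homozygous for a short CRISPR-Cas9 insertion that disrupts an upstream open reading frame in the 5′ leader of Myt3, bred from a founder, and control islets came from adult mice without it. According to the study's methods, each sample pooled islets of male and female mice. The sources used here disagree on the diet and the platform, since the sample labels name a normal diet and PIPseq, and the methods a high-fat diet and inDrop. The labels give the age of the mice only as adult.

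Mutant replicate 1, mutant replicate 2 and control replicate 2 were used, and control replicate 1 was not analysed here. The 3 libraries held 8448466, 9013499 and 36985253 UMIs over 3023, 2045 and 2308 barcodes, so the control library held the most UMIs. No barcode was shared between any of the libraries. In mutant 1, 49.9% of barcodes were β cells, with a 95% exact binomial interval of 48.1% to 51.7%. The share was 59.4% in mutant 2, with limits of 57.2% and 61.6%, and 86.5% in control 2, with limits of 85.0% and 87.9%. These intervals cover counting error only. Because only 1 control library entered, the genotypes were not tested against each other. Control 2 also carried another batch label than the mutants, so batch and genotype cannot be told apart. Each insulin-poor set was therefore compared with the mid-range set of its own library, and values below are given in the order mutant 1, mutant 2, control 2. All cells of a set share a library, and where nothing in the labels says that the libraries came from separate mice, p-values measure the spread between these libraries only.

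Insulin is made as a precursor that carries a signal peptide, enters the endoplasmic reticulum (ER) through the translocon, is folded there with the help of chaperones and disulfide isomerases, and is then cleaved and stored in secretory granules. Mouse β cells transcribe it from a pair of genes, Ins1 and Ins2, under factors that include Mafa, Pdx1 and Nkx6-1. β cells are known to differ among themselves in insulin content, in maturity markers such as Ucn3 and in secretory load.

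The cells were chosen by their insulin share, which is therefore given as a description. The insulin-poor cells numbered 150 of 1509, 121 of 1215 and 199 of 1996 β cells. Their median insulin share was 27.3%, 28.4% and 28.6% of UMIs, against 42.1%, 43.5% and 55.1% in mid-range cells. The last cell inside the set and the first cell outside it stood at 31.96% and 32.00% in mutant 1, at 31.91% and 31.92% in mutant 2, and both at 35.82% in control 2, so the limit cuts through a continuous distribution. Below the floor of 20% lay 41, 32 and 167 cells that met the other criteria and were not used. As a check of the label, G6pc2, a β-cell glucose-6-phosphatase subunit that the selection did not use, stood at 908, 1074 and 1132 in insulin-poor cells against 1274, 1396 and 1953 in mid-range cells, in UMIs in 1000000 non-hormone UMIs (parts per 1000000, ppm from here on, with Ins1, Ins2, Iapp, Gcg, Sst, Ppy and Pyy left out of the total).

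Insulin-poor cells held fewer insulin transcripts per cell in each library, a description, since insulin UMIs were used to choose them. The median insulin UMI count per insulin-poor cell was 909, 977 and 1296, against 1507, 2286 and 9688 in mid-range cells. The median count of non-hormone UMIs was 1908, 2092 and 3051 against 1715, 2560 and 7079. It was thus higher than in mid-range cells in mutant 1, lower in mutant 2 and far lower in control 2. The log2 ratio of these medians averaged -0.45 ± 0.70 (SD, n = 3 libraries), a description, since these UMIs are part of the total that the insulin share was taken of. Insulin-poor cells of control 2 were also shallow as a whole, with a median of 4510 UMIs against 17580, a gap that was 3220.5 against 3527 in mutant 1 and 3499 against 5246 in mutant 2. Less RNA per cell and a poorer capture cannot be told apart in these counts.

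The cells were chosen by the sum of Ins1 and Ins2, so the balance between them is given as a description with no test. The share of Ins2 among insulin UMIs was 87.9%, 86.9% and 80.7% in insulin-poor cells and 83.7%, 81.8% and 75.1% in mid-range cells, higher in insulin-poor cells of each of the 3 libraries. The difference averaged 4.95 ± 0.68 percentage points (SD, n = 3 libraries). Per 10000 non-hormone UMIs, Ins1 stood at 536, 596 and 913 against 1401, 1643 and 3453, and Ins2 at 3906, 3954 and 3812 against 7197, 7407 and 10414. Iapp, the gene of islet amyloid polypeptide that is stored and released with insulin, stood at 1767, 1523 and 1214 per 10000 against 1756, 1615 and 1097. Its level relative to non-hormone transcripts thus differed little while both insulin genes were low.

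**Figure D1:**
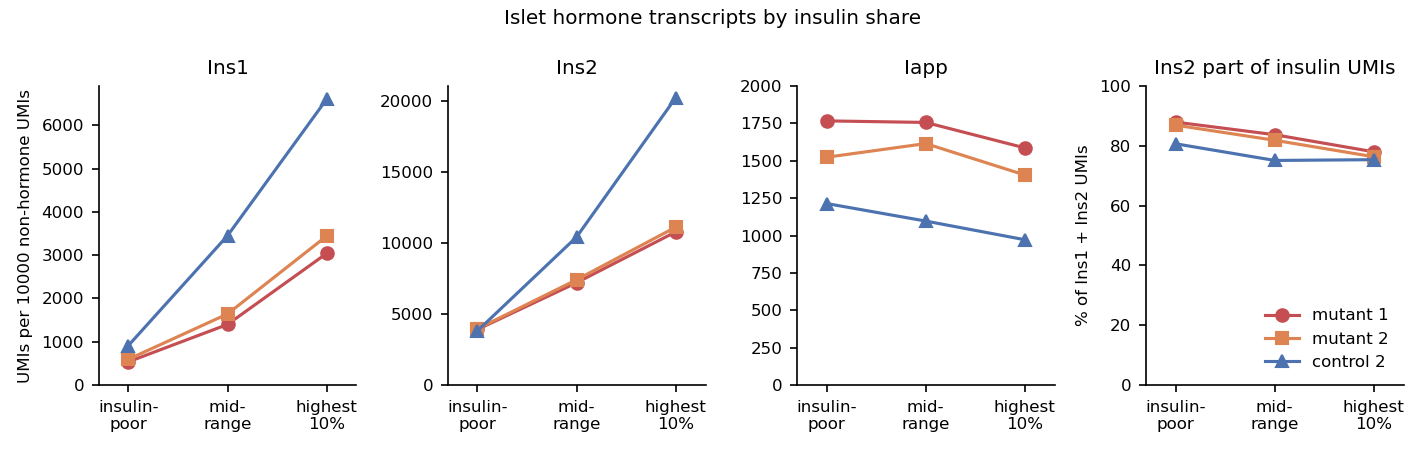
Ins1, Ins2 and Iapp per 10000 non-hormone UMIs, and Ins2 as a percent of insulin UMIs, in the insulin-poor, mid-range and highest 10% of β cells by insulin share, each point the sum over the cells of a set and each line a library. Ins1 and Ins2 lie lower in insulin-poor cells by construction, Iapp lies close to level, and the Ins2 share lies 4.22, 5.06 and 5.57 percentage points above that of mid-range cells.

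Across the transcriptome, 7536 genes with a mean share of 20 ppm or more were tested on UMIs summed per library and set (edgeR quasi-likelihood test with the library as a block and Benjamini-Hochberg adjustment). At an adjusted p under 0.05, 230 genes (3.05% of those tested) were higher in insulin-poor cells and 284 (3.77%) were lower. Of these, 226 and 277 had the same sign in all 3 libraries. Of the genes called higher, 43 had a mid-range mean under 20 ppm and so entered the test through the insulin-poor sets alone, and of those called lower 6 entered through the mid-range sets alone. The median change among the genes called was 1.69-fold for those higher and 0.631-fold for those lower. Log2 ratios were past 0.5 in all 3 libraries for 179 genes upward (2.38% of those tested) and for 141 downward (1.87%). The call count rested on mutant 2: without it 53 genes were higher (0.7% of those tested in that fit) and 19 lower (0.251%), of which 50 and 19 were among the genes called with all 3. Without mutant 1 the counts were 279 (3.64%) and 282 (3.67%), and without control 2 they were 265 (3.65%) and 307 (4.23%). Without the library as a block in the fit no gene passed (0 higher, 0 lower, with 136 and 83 at an unadjusted p under 0.05), whereas 752 and 892 genes were at an unadjusted p under 0.05 with it.

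Genes of the machinery of protein synthesis were lower in large part. Of 81 cytosolic ribosomal protein genes tested, 48 were lower in insulin-poor cells, none was higher and 33 did not pass, against the 3.77% of all genes called lower. Their median log2 ratio was -0.35, -0.40 and -0.57, beside medians over all genes of -0.09, -0.02 and 0.07, and 67 of the 81 were negative in all 3 libraries, as were 21.7% of all genes tested. Rpl38 stood at 899, 1008 and 1353 ppm in insulin-poor cells and at 1359, 1434 and 1936 in mid-range cells. Each insulin-poor value lay below the value of its own library, with a log2 change of -0.54 ± 0.10 (SE; edgeR adjusted p = 0.00658). Rplp1, which encodes a protein of the ribosomal stalk, stood at 330, 276 and 888 against 445, 440 and 1771, a log2 change of -0.73 ± 0.13 (edgeR adjusted p = 0.00482). Rps28 was among the 12 lower genes of the whole table that ranked first by the library ratio nearest 0, at 32.7, 29.9 and 272 against 61.1, 102 and 554. Not every member followed: Rpl32 stood at 1774, 1999 and 1362 against 2007, 2049 and 1459 and did not pass (edgeR adjusted p = 0.583).

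The summed ribosomal level showed the same ordering. It was 29041, 29124 and 46097 ppm in insulin-poor cells against 36521, 37607 and 66421 in mid-range cells. After each cell was thinned to 800 non-hormone UMIs, the median insulin-poor cell held 22, 22 and 29 ribosomal UMIs against 29, 29 and 51, and 26.7%, 24.8% and 56.8% of insulin-poor cells fell below the 5th percentile of mid-range cells. The shift was thus spread over many cells of a set. Many ribosomal protein genes share reads with processed pseudogenes, and how the counting divided such reads is not given in the sources used here, so single members are uncertain. Without mutant 2 the count called lower was 6, and without control 2 it was 33, beside 0.251% and 4.23% of all genes.

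Genes of the entry route into the ER were lower in part. Of 33 genes of the translocon, the signal recognition particle and its receptor, the signal peptidase and the oligosaccharyltransferase, 16 were lower in insulin-poor cells and none higher, against 3.77% of all genes called lower. Their median log2 ratio was -0.30, -0.44 and -0.51, and 22 of 33 were negative in all 3 libraries, against 21.7% of all genes. Sec61a1, the channel subunit of the translocon, stood at 211, 326 and 634 ppm against 415, 452 and 830 in mid-range cells. It was lower in each library, with a log2 change of -0.57 ± 0.13 (edgeR adjusted p = 0.0152). Spcs1, a signal peptidase subunit, stood at 107, 150 and 375 against 178, 216 and 641 (log2 change -0.70 ± 0.13). Ostc, a subunit of the oligosaccharyltransferase that attaches N-glycans, stood at 244, 296 and 389 against 411, 417 and 652 (log2 change -0.67 ± 0.12), and kept its call with each library left out in turn. Tmem258, another subunit of that enzyme, was level at 881, 882 and 548 against 915, 853 and 584. Without mutant 2 only 1 of the 33 was called lower, and without control 2 there were 10, beside 0.251% and 4.23% of all genes.

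Chaperones and disulfide isomerases of the ER formed a further group with lower members. Of 41 genes for ER folding and degradation, 12 were lower (3.77% of all genes were), none was higher, and 29 were negative in all 3 libraries (21.7% of all genes were). The 12 were Pdia3, Pdia6 and P4hb (disulfide isomerases), Calr and Canx (lectin chaperones), Dnajb9, Dnajc3, Sdf2l1 and Hyou1 (partners of the chaperone BiP), Fkbp2, Fkbp11 and Selenok. Fkbp11 was called lower although it was higher in mutant 1 (log2 ratios 0.37, -1.45 and -1.13). Median log2 ratios of the 41 genes were -0.31, -0.31 and -0.37. P4hb stood at 452, 552 and 1358 ppm against 745, 840 and 1949 in mid-range cells, a log2 change of -0.61 ± 0.11 (edgeR adjusted p = 0.00521). Dnajb9 stood at 62.5, 110 and 378 against 145, 162 and 630, and kept its call with each library left out in turn (log2 change -0.79 ± 0.15). Hspa5, the gene of BiP itself, stood at 1542, 1750 and 3238 against 1697, 1884 and 4516 and did not pass (log2 change -0.25 ± 0.10, edgeR adjusted p = 0.171). Ero1b, an oxidase that recharges the isomerases, stood at 7325, 6783 and 2689 against 7977, 7383 and 3109 and did not pass either (edgeR adjusted p = 0.325). Without mutant 2 the number of ER genes called lower was 2, and without control 2 it was 8. In those fits 0.251% and 4.23% of all genes were lower.

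Promoters of this group were inspected because ER chaperone genes are known to carry the ER stress response element, here searched as CCAAT, 9 bases of any kind and CCACG, on both strands, from 250 bases before to 50 bases after each start (RefSeq, GRCm38.p6). The element was in 39 of 32851 promoters (0.119%), in 12 of 6046 tested genes that had a promoter sequence (0.198%), and in 4 of 222 such genes called lower and 0 of 171 called higher. Of 36 ER genes with a promoter sequence, 10 held it, namely Calr, Canx, Creld2, Derl3, Dnajc3, Ero1b, Hsp90b1, Hspa5, Pdia6 and Syvn1. The 4 of them called lower were Calr, Canx, Dnajc3 and Pdia6. Their promoters are given 5′ to 3′ on the strand of the gene, with the element in capitals (reversed and complemented in Calr), to show the element where it lies in these 4 of the 12 ER genes called lower.
Calr (GRCm38.p6 chr8:84846882-84847181, minus strand): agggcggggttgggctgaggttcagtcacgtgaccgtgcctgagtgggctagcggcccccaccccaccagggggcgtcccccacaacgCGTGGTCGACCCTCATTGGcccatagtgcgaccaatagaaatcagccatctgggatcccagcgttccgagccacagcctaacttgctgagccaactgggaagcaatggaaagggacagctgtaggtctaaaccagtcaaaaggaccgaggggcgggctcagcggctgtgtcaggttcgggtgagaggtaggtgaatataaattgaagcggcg
Canx (GRCm38.p6 chr11:50325624-50325923, minus strand): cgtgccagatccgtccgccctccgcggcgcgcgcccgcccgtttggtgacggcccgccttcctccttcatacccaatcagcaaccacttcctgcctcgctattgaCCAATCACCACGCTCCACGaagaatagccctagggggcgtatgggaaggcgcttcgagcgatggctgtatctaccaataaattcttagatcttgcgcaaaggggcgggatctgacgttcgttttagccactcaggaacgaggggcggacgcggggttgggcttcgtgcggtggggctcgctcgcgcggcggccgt
Dnajc3 (GRCm38.p6 chr14:118937682-118937981, plus strand): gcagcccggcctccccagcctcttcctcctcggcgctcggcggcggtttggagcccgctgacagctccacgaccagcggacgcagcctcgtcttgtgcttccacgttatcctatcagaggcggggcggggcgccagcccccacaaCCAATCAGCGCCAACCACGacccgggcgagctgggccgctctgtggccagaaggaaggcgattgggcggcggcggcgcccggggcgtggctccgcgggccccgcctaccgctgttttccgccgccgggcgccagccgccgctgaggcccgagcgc
Pdia6 (GRCm38.p6 chr12:17266339-17266638, plus strand): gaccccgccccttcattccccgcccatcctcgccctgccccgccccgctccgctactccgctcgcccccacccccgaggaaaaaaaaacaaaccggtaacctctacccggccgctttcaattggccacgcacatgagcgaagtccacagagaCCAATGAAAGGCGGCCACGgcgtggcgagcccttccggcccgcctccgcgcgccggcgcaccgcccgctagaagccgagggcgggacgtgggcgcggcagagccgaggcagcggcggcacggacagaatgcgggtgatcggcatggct
Canx stood at 628, 768 and 879 ppm against 949, 1026 and 1135 in mid-range cells (log2 change -0.46 ± 0.11), and Calr at 768, 948 and 1474 against 1079, 1123 and 2086 (-0.41 ± 0.10). Pdia6 stood at 68.5, 113 and 458 against 105, 131 and 833 (-0.66 ± 0.15), and Dnajc3 at 125, 113 and 435 against 159, 159 and 722 (-0.58 ± 0.14). Each of these genes was lower in insulin-poor cells of each of the 3 libraries. Each lost its call in at least 1 fit that left out a library: all 4 without mutant 2 (edgeR adjusted p from 0.0605 to 0.184), Canx and Calr also without mutant 1, and Pdia6 and Dnajc3 also without control 2. A match of these letters is a description of sequence, not of binding.

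**Figure D2:**
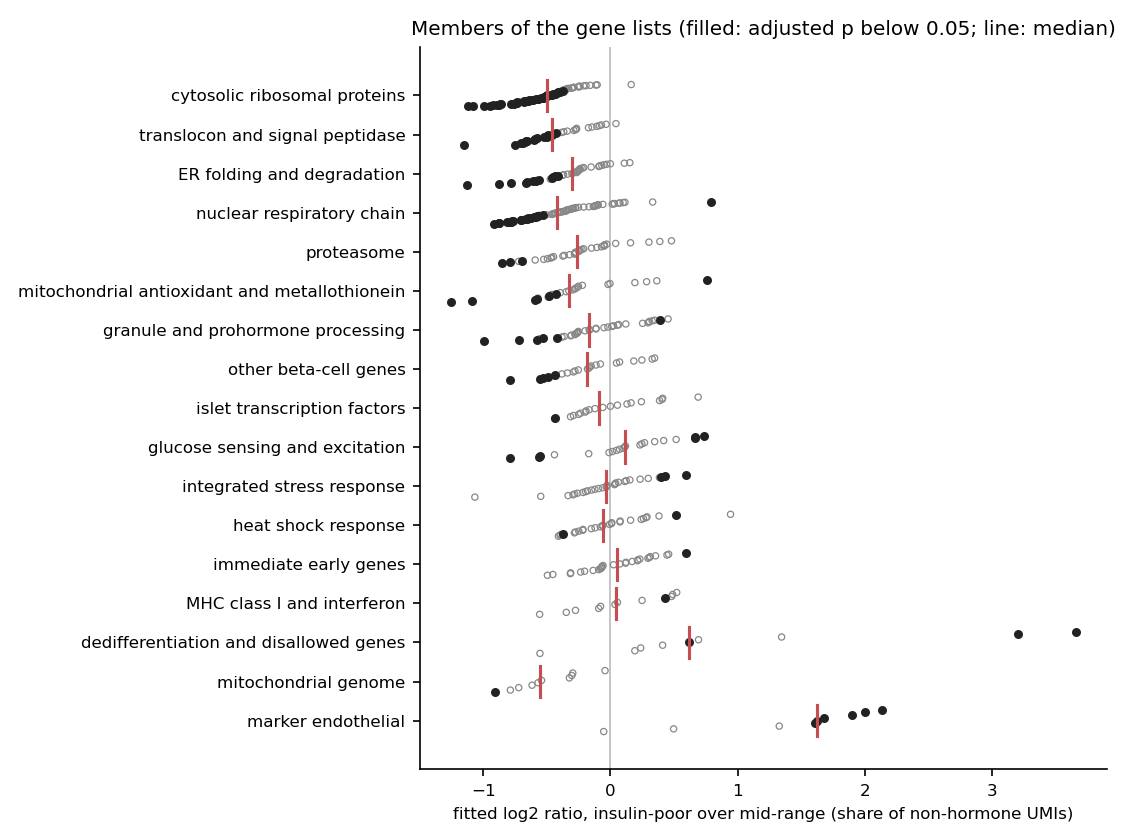
Fitted log2 ratio of insulin-poor over mid-range β cells over the 3 libraries (x axis) for every tested gene of each list, 1 point per gene, filled where the edgeR adjusted p was under 0.05, with the list median as a red line. Calls of ribosomal, translocon and ER folding genes all lie below 0.

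Cargo handling between the ER and the granule showed named members with large differences. Scg2, a granin of the secretory granule, had the smallest edgeR adjusted p of the lower genes described here. It stood at 941, 1144 and 4875 ppm in insulin-poor cells and at 1955, 2631 and 8164 in mid-range cells. The log2 change was -0.99 ± 0.10 (edgeR adjusted p = 6.81e-05), and it kept its call with each library left out in turn. Lman1, a cargo receptor that cycles between ER and Golgi, stood at 47.6, 69.9 and 305 against 102, 137 and 533 (log2 change -0.89 ± 0.15). Tmed5 and Tmed3 belong to the p24 family of cargo receptors. Tmed5 stood at 68.5, 63.2 and 77.3 against 131, 120 and 132, and Tmed3 at 223, 240 and 796 against 404, 438 and 1156, with log2 changes of -0.85 ± 0.17 and -0.72 ± 0.12, although both lost their call without mutant 2 (edgeR adjusted p = 0.0930 and 0.0827). Of the 36 granule and prohormone-processing genes tested, 5 were lower (Scg2, Scg3, Pcsk1n, Rab3d and Tmed3), 1 was higher (Ica1) and 30 did not pass, beside 3.77% of all genes lower and 3.05% higher. Without mutant 2, Scg2 alone was called lower and none higher, beside 0.251% and 0.7% of all genes in that fit. Ica1 lost its call in 15 of the alternative fits besides the fit with no library block. Chga, an abundant granin, was level at 17531, 15538 and 11044 against 18069, 16252 and 9759 (log2 change 0.02 ± 0.08). The secretory machinery thus did not differ as a block.

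Genes of the mature β cell were in part lower. Of 23 other β-cell genes tested, 5 were lower (Ucn3, Prlr, Mafa, Slc2a2 and Ffar1; 3.77% of all genes were) and none higher, with median log2 ratios of -0.24, -0.12 and -0.24. Ucn3, a peptide that marks mature β cells, stood at 551, 509 and 286 ppm against 808, 726 and 408 in mid-range cells. Its log2 change was -0.53 ± 0.11 (edgeR adjusted p = 0.00989). Slc2a2, the glucose transporter of rodent β cells, stood at 241, 299 and 101 against 369, 391 and 161 (log2 change -0.55 ± 0.13, edgeR adjusted p = 0.0174). G6pc2 stood at 908, 1074 and 1132 against 1274, 1396 and 1953 (log2 change -0.56 ± 0.11, edgeR adjusted p = 0.00815). All 3 genes were lower in each library. Without mutant 2, none of the 23 other β-cell genes was called, nor was G6pc2 (edgeR adjusted p = 0.0760). Without control 2, 8 of the other β-cell genes were called lower. In those fits 0.251% and 4.23% of all genes were lower.

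Among 20 islet transcription factors tested, only Mafa, an activator of insulin genes, was lower, and none was higher. That is 5% of the list beside 3.77% of all genes, so nothing is read from the count. Mafa stood at 2795, 2282 and 403 ppm in insulin-poor cells and at 3369, 3058 and 622 in mid-range cells. It was lower in each library, by more in control 2 than in mutant 1, with a log2 change of -0.43 ± 0.10 (edgeR adjusted p = 0.0186). The call was a narrow one and was lost in 7 of the alternative fits besides the fit with no library block, with edgeR adjusted p = 0.0977 for cells of at least 4000 UMIs and 0.219 without mutant 2. Pdx1 stood at 378, 383 and 134 against 393, 392 and 179 (log2 change -0.17 ± 0.13, edgeR adjusted p = 0.472). Nkx6-1 stood at 1533, 1567 and 816 against 2068, 1979 and 878 (log2 change -0.29 ± 0.10, edgeR adjusted p = 0.107). Nkx2-2 was at 783, 868 and 450 against 924, 872 and 431. Neither Pdx1, Nkx6-1 nor Nkx2-2 passed the test.

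St18, the gene targeted in the mutants, stood at 119, 186 and 240 ppm against 159, 226 and 217 and did not pass (log2 change -0.12 ± 0.15, edgeR adjusted p = 0.681). In the study's account, the insertion alters the leader of a main Myt3 transcript and adds amino acid residues to the protein made from another. The St18 transcript level is no check of the genotype labels. Its relative Myt1 stood at 71.4, 89.8 and 75.9 against 65.8, 72.1 and 48.2 (edgeR adjusted p = 0.217). Aldh1a3, a marker of dedifferentiated β cells, stood at 89.3, 86.5 and 417 against 67.9, 72.7 and 390 (edgeR adjusted p = 0.481). Atf4, a factor of the integrated stress response, stood at 116, 113 and 293 against 130, 148 and 346 (edgeR adjusted p = 0.293). None of these differences was larger than the spread between libraries allowed the test to call.

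The summed level of nuclear respiratory chain genes was lower in insulin-poor cells of each library (log2 ratio -0.15, -0.23 and -0.39). That of the mitochondrial genome was lower in the mutants but higher in control 2. Neither sum was tested. Of 75 nuclear genes of the respiratory chain, 22 were lower in insulin-poor cells (3.77% of all genes were) and 1, Cox5a, was higher. Their median log2 ratio was -0.23, -0.42 and -0.48, and 51 of the 75 were negative in all 3 libraries, against 21.7% of all genes. Cox6a1, a subunit of cytochrome c oxidase, stood at 41.7, 39.9 and 175 ppm against 72.6, 83.7 and 295 in mid-range cells. It was lower in each library (log2 change -0.82 ± 0.17, edgeR adjusted p = 0.00974). Ndufa1, a subunit of complex I, stood at 134, 140 and 333 against 208, 232 and 494 (log2 change -0.63 ± 0.13). Chchd2, a protein of the mitochondrial intermembrane space, stood at 104, 166 and 364 against 204, 297 and 601 (log2 change -0.81 ± 0.13) and kept its call with each library left out in turn. Cox5a went the other way at 426, 412 and 171 against 282, 217 and 93.6 (log2 change 0.79 ± 0.13). Without mutant 2, none of the 75 was called, and without control 2 there were 11 lower. In those fits 0.251% and 4.23% of all genes were lower. With mid-range cells matched on non-hormone UMIs, 11 were also lower (in that fit 3.28% of all genes were lower and 2.67% higher).

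Transcripts of the mitochondrial genome did not move one way. Summed, they made up 10873, 11167 and 38326 ppm in insulin-poor cells against 22689, 20665 and 25893 in mid-range cells. They were therefore lower in insulin-poor cells of both mutants (log2 ratio -1.06 and -0.89) and higher in those of control 2 (0.57). mt-Co3, a subunit of cytochrome c oxidase and the most abundant of them, stood at 7682, 7309 and 14986 against 13958, 11550 and 9572. Of 10 such genes tested, mt-Nd3 alone was called, as lower, although it was higher in control 2 (574, 662 and 2642 against 1881, 1794 and 2183). The opposite directions were untested, since only 1 control library entered. In control 2, 38.2% of insulin-poor cells, at equal depth, lay above the 95th percentile of mid-range cells for these transcripts and 18.1% lay below the 5th. That library also held the shallowest insulin-poor cells relative to its mid-range cells, and the part of depth or of damaged cells in this was not tested. With a limit of 5% on mitochondrial UMIs, the log2 ratio of control 2 was 0.10 and those of the mutants were unchanged at -1.06 and -0.89.

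Genes of other housekeeping groups were lower in smaller numbers, to be read beside the 3.77% of all genes called lower and 3.05% called higher. Of 25 antioxidant and metallothionein genes, 6 were lower (Gpx4, Prdx3, Prdx6, Sod1, Ftl1 and Selenop) and 1, Gpx3, was higher. Prdx3 reached the minimum of 20 ppm through the mid-range sets alone, so its call adds no support. None of the 25 was called in either direction without mutant 2, a fit in which 0.251% of all genes were lower and 0.7% higher. Gpx4, which reduces lipid peroxides, stood at 44.6, 29.9 and 75.9 ppm against 84.8, 114 and 137 in mid-range cells. It was lower in each library (log2 change -1.09 ± 0.21, edgeR adjusted p = 0.00748). Gpx3, a secreted glutathione peroxidase, stood at 414, 552 and 1282 against 210, 223 and 1137. Of 34 proteasome genes, 3 were lower, and none without mutant 2. Of 7 cell-cycle genes tested, the D-type cyclins Ccnd1 and Ccnd2 were lower, Ccnd2 at 1524, 1630 and 1095 against 2134, 2178 and 1654 (log2 change -0.50 ± 0.10). Gpx4, Gpx3, Ccnd1 and Ccnd2 all lost their call without mutant 2 (edgeR adjusted p = 0.0930, 0.209, 0.124 and 0.124). Dapl1, the lowest of the named genes by its fitted change, was at 0 UMIs in insulin-poor cells of mutant 1, which is at least 3.12-fold lower than the 27.8 ppm of its mid-range cells if 3 UMIs are taken as the limit, and stood at 9.98 and 244 against 39.0 and 647 in the other libraries.

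Genes called higher were ranked by the library ratio nearest 0, and the 12 that led this ranking were higher in each library. Ptprj, a receptor-type tyrosine phosphatase, stood at 810, 768 and 344 ppm against 361, 297 and 131 in mid-range cells. Its log2 ratios were 1.17, 1.37 and 1.40, with a fitted change of 1.31 ± 0.11 (edgeR adjusted p = 1.92e-05). Enpp6, a choline-specific phosphodiesterase, stood at 1357, 1753 and 273 against 701, 895 and 140. It was about as much higher in each library (log2 ratios 0.95, 0.97 and 0.97). Lars2, the mitochondrial leucyl-tRNA synthetase, stood at 2256, 2162 and 250 against 1132, 1006 and 135 (edgeR adjusted p = 6.81e-05). Lgmn, a lysosomal protease, stood at 152, 153 and 73.2 against 69.9, 66.9 and 29.5 (log2 change 1.21 ± 0.17). Ptprj, Enpp6, Lars2 and Lgmn kept their calls with each library left out in turn. The adhesion genes Nlgn1 and Cntnap5b were higher as well, Nlgn1 at 68.5, 76.5 and 130 against 19.7, 34.3 and 64.8, and Cntnap5b at 77.4, 93.1 and 87.0 against 19, 27.9 and 40.5. The other members of the 12 were Pigr, Unc93b1, Gm36642, Irak2, Iho1 and Zdhhc1. The ranking does not ask for equal size, and the log2 ratios of Pigr were 1.84, 5.56 and 3.74.

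**Figure D3:**
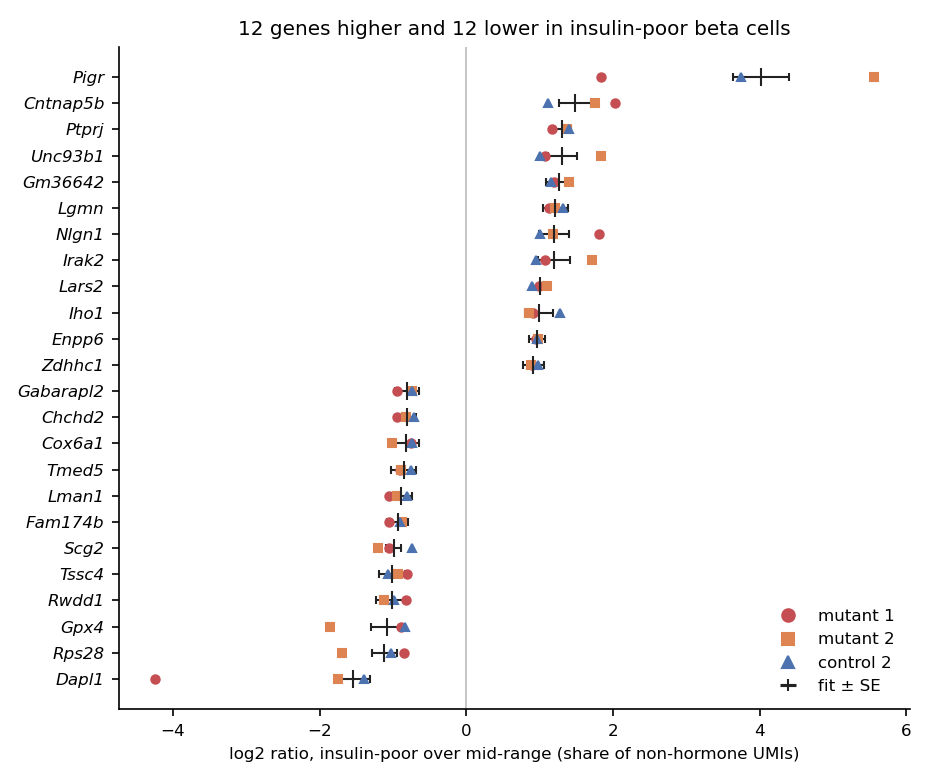
Log2 ratio of insulin-poor over mid-range β cells for the 12 highest and 12 lowest named genes, with 1 symbol per library and the fitted value with its SE in black. The 3 symbols of each gene lie on one side of 0, and the far left point of Dapl1 comes from 0 UMIs with 0.5 added.

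Genes of excitation and glucose sensing went both ways. Of 21 tested, 3 were higher, among them the channel genes Cacna1a and Scn3a, and 3 were lower (G6pc2, Slc2a2 and Ffar1), beside 3.05% of all genes higher and 3.77% lower. Cacna1a, a pore subunit of voltage-gated calcium channels, stood at 1363, 978 and 599 ppm against 884, 692 and 327 in mid-range cells. It was higher in each library and kept its call with each left out in turn (log2 change 0.67 ± 0.11, edgeR adjusted p = 0.00350). Scn3a, a sodium channel, stood at 74.4, 49.9 and 177 against 27.8, 28.5 and 127 (log2 change 0.74 ± 0.20). Abcc8, the sulfonylurea receptor of the KATP channel, was level at 783, 981 and 1151 against 825, 948 and 987. Scn3a lost its call without mutant 2 (edgeR adjusted p = 0.166) and also without mutant 1.

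Stress-response lists held few called genes. Of 29 integrated stress response genes tested, 3 were higher (Atf3, Wars and Sars) and none lower, against 3.05% of all genes called higher. Atf3, a transcription factor induced by stress, stood at 176, 203 and 135 ppm against 114, 137 and 88.9 in mid-range cells (log2 change 0.60 ± 0.14, edgeR adjusted p = 0.0196). It lost its call without mutant 2 (edgeR adjusted p = 0.163), and so did Wars and Sars. Of 27 heat shock genes, Dnajb1 was higher at 7048, 6657 and 707 against 4940, 4691 and 490 (log2 change 0.51 ± 0.09) and Ubb was lower, beside 3.05% of all genes higher and 3.77% lower. Dnajb1 and Ubb both lost their call without mutant 2 (edgeR adjusted p = 0.129 and 0.221). Of 28 immediate early genes, 1 was higher, again Atf3. That is 3.57% of the list beside 3.05% of all genes, so nothing is read from the count. Fos stood at 3768, 3892 and 1647 against 4058, 4179 and 1607. Of 12 class I MHC and interferon genes, H2-D1 alone was higher (8.33% of the list beside 3.05% of all genes). It stood at 571, 472 and 284 against 398, 348 and 227 (log2 change 0.43 ± 0.11), a call lost without mutant 2 (edgeR adjusted p = 0.238). None of 10 nuclear long noncoding RNAs was called, and Malat1 stood at 396, 968 and 5363 against 833, 1074 and 3667, lower in mutant 1 and higher in control 2.

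Among markers of dedifferentiation, Ldha came from few cells in mutant 1 and control 2, and Tff3 did so mainly in mutant 2. Both reached the minimum of 20 ppm through the insulin-poor sets alone, so that their calls as higher add no support and the calls on this list of 9 tested genes are not counted. Cd81, a tetraspanin, was higher at 125, 140 and 115 ppm against 67.9, 76.7 and 93.3 (edgeR adjusted p = 0.0421), and lost its call without mutant 2 and without mutant 1. Tff3, a trefoil peptide of mucosal epithelia, stood at 26.8, 785 and 24.8 ppm against 22.4, 12.8 and 10.2 in mid-range cells, and the 5 highest cells held 55.6%, 99.2% and 38.9% of its UMIs in the insulin-poor sets. Tff3 had few UMIs in mutant 1 and control 2, so those shares say little there. It lost its call without mutant 2 (edgeR adjusted p = 0.339). Ldha, lactate dehydrogenase A and a gene that β cells normally keep low, stood at 53.6, 9.98 and 46.9 against 4.75, 2.91 and 2.42, with 100%, 100% and 91.2% of its UMIs from 5 cells. In mutant 2 its level was 3 UMIs, which 5 cells hold in any case. Pigr, the epithelial transporter of immunoglobulins (log2 change 4.02 ± 0.38), stood at 116, 1407 and 214 against 32.6, 29.7 and 16.0, with 79.5%, 97.9% and 87.7% of its UMIs from the 5 highest cells of each set. Most UMIs of Pigr thus came from a few cells of each set. Those of Ldha did so in mutant 1 and control 2, and those of Tff3 mainly in mutant 2. The 5 highest cells held 40.5%, 31.0% and 32.5% of Cd81 UMIs, 28.8%, 69.1% and 21.1% of the UMIs of the whole dedifferentiation list, and 16.5%, 18.6% and 19.1% of Scg2 UMIs.

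Transcripts of several other cell types were more frequent in insulin-poor cells, though not of each type nor in each library, and their part in the results above was not tested. No doublet caller was run. Gcg, Sst and Ppy were each limited to under 2% of UMIs by the selection, and they and Pyy are given as shares of the UMIs other than insulin, since any share of all UMIs goes up where insulin is low. Gcg took 0.646%, 0.903% and 0.0632% in insulin-poor cells against 0.380%, 0.487% and 0.0376% in mid-range cells. Sst took 0.195%, 0.346% and 0.0470% against 0.0715%, 0.0610% and 0.0475%, so it was not higher in control 2. Ppy, the hormone of PP cells, took 0.201%, 0.247% and 0.0799% against 0.104%, 0.117% and 0.0484%. Pyy took 0.171%, 0.25% and 0.0523% against 0.0647%, 0.0699% and 0.0272%, so that Gcg, Ppy and Pyy were higher in each library. Of 9 endothelial markers tested, 6 were called higher (Plvap, Esm1, Flt1, Pecam1, Ctla2a and Ly6c1), beside 3.05% of all genes. Of these 6, Pecam1, Ctla2a, Esm1 and Ly6c1 reached the minimum of 20 ppm through the insulin-poor sets alone, so their calls add no support. The summed endothelial list of 20 genes stood at 1854, 552 and 411 ppm against 349, 422 and 305, so that mutant 1 was far above the other libraries. Plvap was its most abundant gene in mutant 1, where 75.1% of the list's UMIs came from 5 cells, and Igfbp7 in the other libraries, where Gpihbp1 and Cd93 (mutant 2) and Gpihbp1 and Ecscr (control 2) were at 0. Plvap and Flt1, the other called markers, both lost their call without mutant 1 (edgeR adjusted p = 0.220 and 0.224).

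Other marker lists added single genes, to be read beside the 3.05% of all genes called higher and the 3.77% called lower. Reg1, an acinar gene, stood at 41.7, 16.6 and 102 ppm against 14.3, 2.33 and 12.1, also entering the test through the insulin-poor sets alone, and the acinar list of 33 genes summed to 515, 346 and 697 against 396, 222 and 341. Of 5 macrophage and leukocyte markers tested, Cd74 and H2-Ab1 were higher and 3, among them Ptprc and C1qa, did not pass. The list of 23 genes summed to 289, 432 and 248 against 218, 284 and 154. C1qa was its most abundant gene in control 2, and Cd3e and Cd14 were at 0 in both mutants. Of 2 stellate markers tested, Mgp was called higher, likewise through the insulin-poor sets alone, with 81.6% of its UMIs in control 2 from 5 cells. Of 3 delta-cell markers tested, Nrg1 alone was called higher, at 143, 153 and 38.6 ppm against 49.5, 42.4 and 45.1, lower in control 2. Casr (log2 ratios -0.17, -0.38 and 0.36) and Rbp4 (0.43, 2.86 and 0.63) did not pass. Of 3 PP-cell markers tested, Etv1 and Tspan8 (also on the duct list) were called higher, and Fxyd6 stood at 29.8, 56.6 and 112 against 35.3, 71.5 and 154, lower in each library without passing the test (edgeR adjusted p = 0.219). The PP-cell list summed to 286, 329 and 433 ppm against 202, 212 and 401. Nrg1, Etv1 and Tspan8 lost their calls without mutant 2 (edgeR adjusted p = 0.374, 0.320 and 0.281). The alpha-cell list summed to 1744, 2189 and 4014 ppm against 2058, 2213 and 6198, of which Ttr made up most, and without Ttr to 810, 1008 and 1081 against 854, 830 and 1210, higher in mutant 2 and lower in the other libraries. The duct list summed to 1253, 1244 and 1601 against 1120, 1023 and 1616. Of the alpha-cell markers tested Ttr alone was called, as lower, at 935, 1181 and 2933 against 1204, 1383 and 4988. None of 7 red-cell genes was abundant enough to be tested, with 3, 3 and 5 UMIs in the insulin-poor sets.

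The main groups were recounted without the cells richest in such markers. With the 10% of β cells with the largest summed share of other-cell markers left out of each library before the sets were formed, 138 genes were higher (1.85% of 7475 tested) and 237 lower (3.17%), of which 121 and 213 were among those called above. In that fit 42 of 81 ribosomal, 12 of 33 translocon, 12 of 41 ER folding and 21 of 75 respiratory chain genes were called lower, of which 40, 12, 10 and 18 were among the 48, 16, 12 and 22 called lower with all β cells. Scg2, Ptprj, Enpp6, Lars2, Lman1 and Chchd2 kept their calls, and Mafa was at an edgeR adjusted p = 0.0533.

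The differences were not confined to the lowest cells. Sorted into 10 sets by insulin share, the β cells of each library showed ribosomal levels that went up with insulin share, with small reversals between neighbouring sets. The lowest and highest sets stood at 29041 and 47770 ppm (mutant 1), 29124 and 48643 (mutant 2) and 46097 and 75912 (control 2). Scg2 went from 941 to 3869, from 1144 to 4718 and from 4875 to 11107. Ptprj went from 810 to 285, from 768 to 188 and from 344 to 89.2, with the largest single step after the lowest set in each library. Mafa climbed mainly over the lowest sets, from 403 to 513, 592 and 631 over the first 4 sets of control 2, and stood at 695 in the highest. The share of Ins2 among insulin UMIs went from 87.9% to 78.0% in mutant 1 and from 86.9% to 76.3% in mutant 2, but levelled off at 75.4% in control 2. Mitochondrial genome transcripts climbed from 10873 to 30002 in mutant 1 and from 11167 to 27551 in mutant 2, whereas in control 2 the lowest set alone stood apart, at 38326 against 25043 in the set above it. These are descriptions, since the sets were ordered by insulin share.

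**Figure D4:**
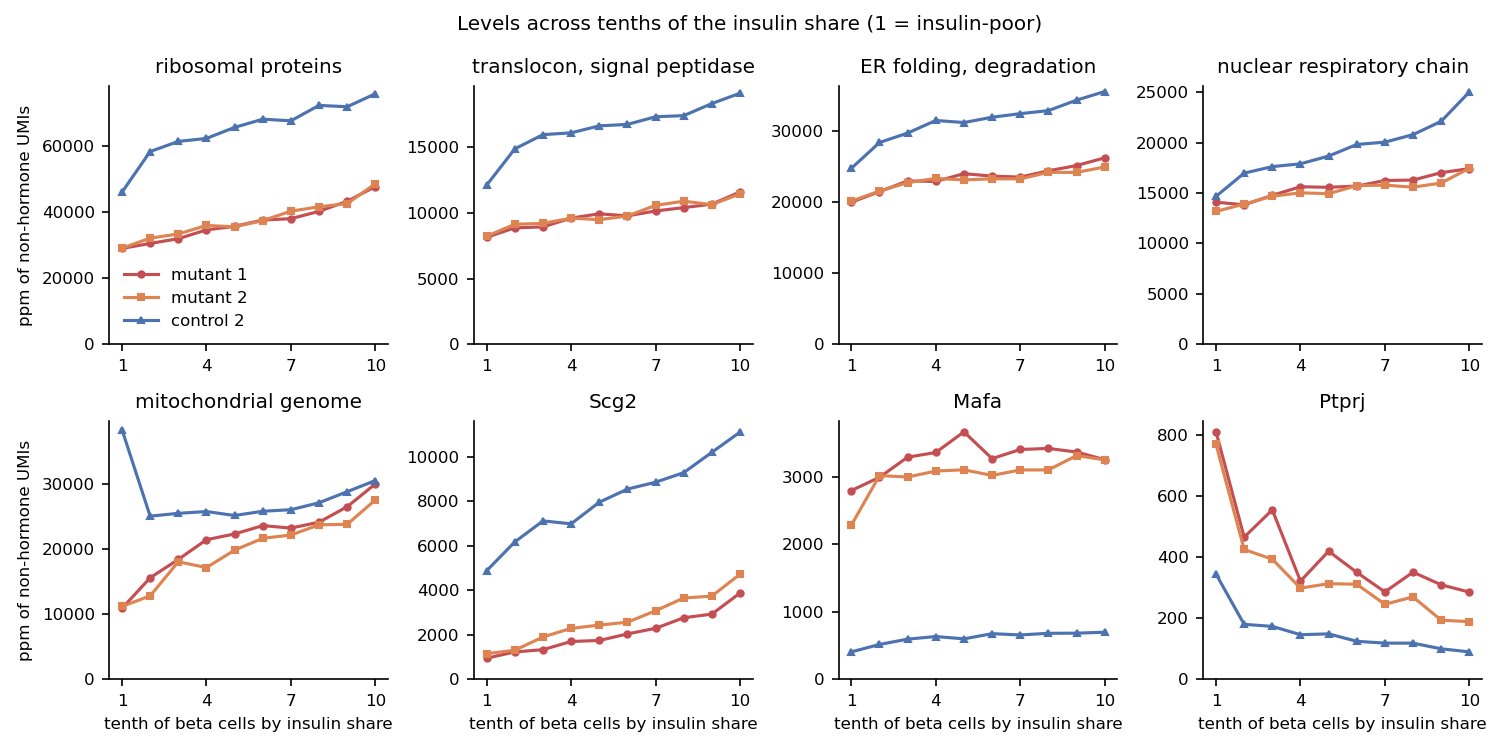
Summed or single-gene shares in ppm of non-hormone UMIs in 10 equal sets of β cells ordered by insulin share (set 1 is insulin-poor), 1 line per library. Ribosomal, translocon, ER folding and respiratory chain genes and Scg2 go up with insulin share, Ptprj goes down, and the mitochondrial genome stands apart in set 1 of control 2.

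Gene length ran through both directions, a description made after the values were seen and not tested. Of 7533 tested genes with a known genomic span (GENCODE vM21), the 754 shortest had 115 called lower (15.3%) and 19 higher (2.52%), and the 754 longest had 3 called lower (0.398%) and 70 higher (9.28%). The median span of genes called higher was 66.3 kb and of those called lower 7.32 kb, against 31.0 kb for all genes tested. Median log2 ratios ran from -0.16, -0.16 and -0.25 in the shortest genes to 0.05, 0.19 and 0.44 in the longest. The ordering remained with ribosomal, secretory, respiratory chain and proteasome genes left out, where 7.99% of the shortest genes were called lower. Among the genes described above, Nlgn1 spans 906 kb, Cntnap5b 713 kb, Cacna1a 252 kb and Ptprj 151 kb, whereas Scg2 spans 5.45 kb, Rps28 5.54 kb and Spcs1 1.85 kb. Many genes of the lower groups are thus short, and group and length cannot be told apart for them here.

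**Figure D5:**
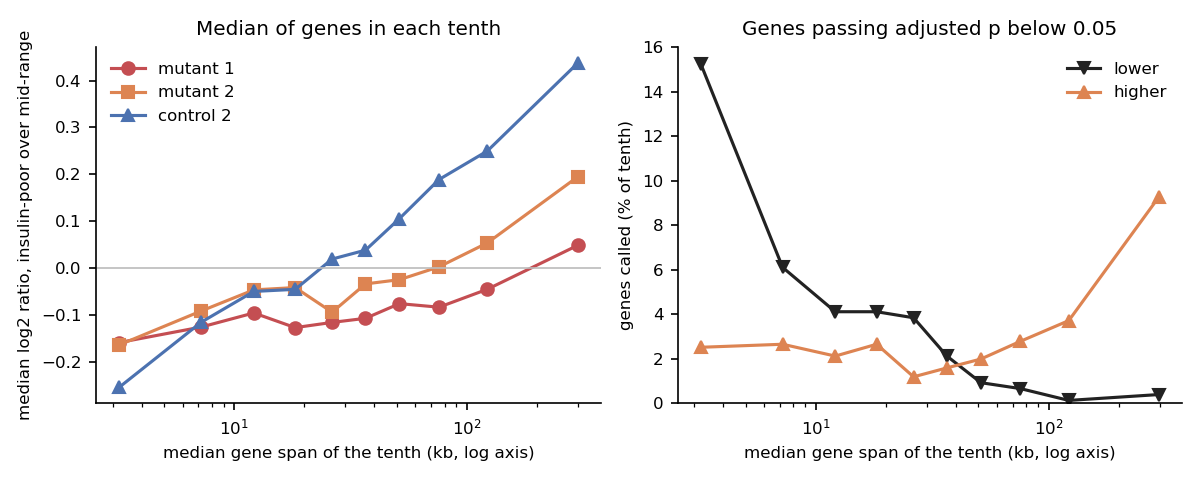
Median log2 ratio per library (left) and percent of genes called higher or lower in insulin-poor β cells (right) in 10 equal sets of tested genes, placed at the median genomic span of the set in kb on a log axis. The share called lower is largest in the shortest genes (15.3%) and the share called higher in the longest (9.28%).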

How the data were processed

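Single-cell suspensions of mouse islets were profiled as droplet libraries. The authors deposited UMI counts per gene and barcode, not normalized, with GRCm39 and Seurat named in the submitters' processing notes; the study's methods name DropEst for counting, and strand handling is not given in the sources used here. No deposited column was left unmapped. UMIs were summed per library and set of cells (335972, 300608 and 724469 non-hormone UMIs in the insulin-poor sets), with 7 hormone genes left out, and the 7536 genes whose mean share reached 20 parts per 1000000 (ppm) were fitted with edgeR 4.0.16 (R 4.3.3) by glmQLFit and glmQLFTest, with library as a block, total non-hormone UMIs as offset and Benjamini-Hochberg adjustment at 0.05. Ratios per library had 0.5 UMI added to each sum. The fit was also run on simulated data, and nothing from that run is used here. Genes were named as the 12 highest and the 12 lowest called genes with the same sign in all libraries and at least 50 ppm, ranked by the library ratio nearest 0, up to 4 abundant genes per list, genes of the study's text and hormones; genes listed as called members of a list were also named. The members and the gene lists were chosen with earlier results of these data known. DESeq2 1.42.0, other limits, other comparison sets, thinning and leaving out each library were tried as alternatives. Some genes are not reported here. RefSeq promoters (GRCm38.p6) were matched by symbol.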

Additional observations from a re-analysis of the deposited data

Results flagged for a closer look

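Transcripts of the mitochondrial genome moved in opposite directions in the insulin-poor β cells of the mutant and control libraries. The log2 ratio of their summed share, insulin-poor over mid-range cells, was -1.06 in mutant 1 and -0.89 in mutant 2, and 0.566 in control 2. The difference between the genotypes was not tested, because only 1 control library entered, and that library carried another batch label and held more UMIs.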

How the results depend on the processing

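The causes of the shifts below were not tested. No paired analysis was possible because mutant and control share only 1 replicate number here, which concerns the genotypes alone: the comparison of cell sets was itself paired within each library by the block. Genes called higher and lower numbered 230 and 284, and 114 and 141 with DESeq2 (adjusted p left missing for some genes), 376 and 445 with TMM factors, 652 and 755 against the highest 10% of cells, 145 and 179 in cells of at least 4000 UMIs, and 0 and 0 with no library block. Genes called higher were 352 with no minimum and 138 with the cells richest in other-cell markers left out. Leaving out each library in turn gave 53 to 279 genes higher and 19 to 307 lower. Genes with the same sign in all libraries numbered 2047 at a minimum of 50 ppm and 12792 with no minimum. These counts are not compared, since the number of genes tested in each of those fits is not given here. Insulin-poor sets held fewer UMIs in total than mid-range sets. The fraction of a UMI added to each sum therefore gives a gene without UMIs in either set a positive ratio. Nothing is read from the count with no minimum for that reason. The log2 ratio of non-hormone UMIs per cell was 0.43 with cells thinned to 2000 UMIs, a sign that the choice by insulin share sets at a fixed total.

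Against the highest 10% of cells, median fitted log2 ratios were -0.54 for ER folding, -0.67 for translocon, -0.88 for ribosomal and -0.87 for respiratory chain genes, and the mitochondrial genome difference between mutants and control was -1.72. With an insulin floor of 30%, they were -0.24, -0.30 and -0.34 for ER folding, translocon and ribosomal genes, and -0.82 for the mitochondrial difference. With the lowest 20% of cells as insulin-poor, ER folding was at -0.26, translocon at -0.32 and the mitochondrial difference at -1.01. ER folding was at -0.35 with an insulin floor of 10%, with the lowest 5% of cells and without the cells richest in other-cell markers, and ran from -0.37 to -0.31 with each library left out, while ribosomal genes ran from -0.53 to -0.37. The mitochondrial difference was -1.31 in cells of at least 4000 UMIs, -1.93 with a floor of 10%, -1.87 with the lowest 5% of cells, -1.41 with matched mid-range cells and -1.07 with a mitochondrial limit of 5%. Of the sparse marker lists, the duct median turned to -0.13, -0.036, -0.015, -0.043 and -0.035 (highest cells, floor of 30%, lowest 20%, matched cells, cells rich in other-cell markers left out) and the stellate median to -0.12 (the same cells left out) and ran from -0.0044 (without control 2) to 1.46 (without mutant 1). Pdx1 turned to 0.041 against the highest cells and St18 to 0.17 with thinned cells. Of the 24 genes that ranked first by the library ratio nearest 0, 7 lost their call without mutant 2 and all 24 with no library block.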

Other observations

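Bc1, a brain cytoplasmic RNA, and Tbc1d22b, a gene of the TBC domain family, were picked after their values were seen because they took an unusually large part of the insulin-poor transcriptome. Together they held 4.16%, 2.56% and 1.58% of the non-hormone UMIs of insulin-poor cells, against 1.44%, 1.35% and 1.01% in mid-range cells, so they were higher in each library. Their UMIs stood in a near-constant ratio, with 0.753, 0.773 and 0.728 Bc1 UMIs per Tbc1d22b UMI in insulin-poor cells and 0.744, 0.772 and 0.719 in mid-range cells. The 5 highest cells held 27.1%, 29.6% and 29.8% of the Tbc1d22b UMIs of the insulin-poor sets.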
